A study of Mus musculus with 2 samples.

Results

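Intervals called with a Myc-Tag antibody against tagged Dlx5 were taken from the ChIP-seq data of a Lck-Dlx5 T-cell lymphoma. Those collected lay at the end of a noncoding gene and at the end of no protein-coding gene. Each called interval on chromosomes 1 to 19 was joined to its summit, the position of its highest signal. An interval was kept when its summit was more than 1 kb from both ends of every coding gene. The summit also had to be at most 2 kb from an end of a gene of any other biotype. Intervals called in the input with the same start and end were dropped, and input signal at the kept intervals was not examined. Of 3477 intervals, 3453 were on these chromosomes and 3425 of those were not called in the input. The rule kept 276 of the 3425 (8.06%, 95% Wilson interval 7.19 to 9.02), while 2019 were within 1 kb of a coding end and 1130 were away from all gene ends by the same distances. The Wilson intervals here and later cover counting error only. The series has 2 libraries, 1 Myc-Tag ChIP and 1 input, both from Lck-Dlx5 lymphoma, without replicates, so nothing below was tested between conditions. Lck-Dlx5 mice carry a transgene that overexpresses Dlx5 in thymocytes, and the Myc-Tag antibody captured its product, so endogenous Dlx5 was not measured. Both samples carry the transgene, and the input, which is chromatin taken without the antibody, is the only control analysed here. The labels give a primary tumor of strain C57BL/6 for the ChIP and strain C57BL/7, as written there, for the input, and no age or treatment beyond normal housing. The methods instead name a lymphoma cell line and an IgG control.

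Noncoding genes give rise to RNAs that are used as such. Small nuclear RNAs (snRNAs) build the spliceosome, transfer RNAs (tRNAs) carry amino acids to the ribosome, small nucleolar RNAs (snoRNAs) guide chemical modification of other RNAs, and microRNAs pair with messenger RNAs through a short seed near their 5′ end. Long noncoding RNAs (lncRNAs) are a mixed group, from nuclear scaffold RNAs to hosts of snoRNAs and microRNAs, and pseudogenes are copies of genes that have mostly lost their coding capacity. Most spliceosomal snRNAs and lncRNAs are made by RNA polymerase II, whereas tRNAs and the U6 snRNA are made by RNA polymerase III. Dlx5 is a homeodomain transcription factor of skeletal and forebrain development whose family is known to bind the core TAATT.

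The promoters shown here are those where a summit fell inside the window that RefSeq gives for a lncRNA gene on build GRCm38.p6, from 250 bases before the start to 50 after it. They are a choice of these windows, with examples that hold the Dlx core and genes described below. The windows are chr2:164911183-164911482 (+ strand) for Zfp335os, chr11:62602627-62602926 (+ strand) for 2410006H16Rik, chr19:5802623-5802922 (- strand) for Malat1, chr8:92356071-92356370 (- strand) for Crnde, chr9:31559448-31559747 (+ strand) for Gm31408 and chr7:113261685-113261984 (- strand) for Gm33721. Sequences run 5′ to 3′ along the gene's strand, and capitals mark TAATT or its reverse complement AATTA.
Zfp335os promoter: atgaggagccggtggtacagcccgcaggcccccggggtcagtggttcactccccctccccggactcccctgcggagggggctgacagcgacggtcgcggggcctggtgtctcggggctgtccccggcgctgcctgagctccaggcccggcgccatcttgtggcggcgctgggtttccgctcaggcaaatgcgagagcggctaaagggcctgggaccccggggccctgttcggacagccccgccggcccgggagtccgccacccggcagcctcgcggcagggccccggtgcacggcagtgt
2410006H16Rik promoter: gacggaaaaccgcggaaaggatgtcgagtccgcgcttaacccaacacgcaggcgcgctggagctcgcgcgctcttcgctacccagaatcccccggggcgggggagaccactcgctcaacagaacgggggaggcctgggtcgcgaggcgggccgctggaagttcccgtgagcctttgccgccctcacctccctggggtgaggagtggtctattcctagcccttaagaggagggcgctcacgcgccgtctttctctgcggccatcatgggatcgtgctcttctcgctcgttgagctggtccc
Malat1 promoter: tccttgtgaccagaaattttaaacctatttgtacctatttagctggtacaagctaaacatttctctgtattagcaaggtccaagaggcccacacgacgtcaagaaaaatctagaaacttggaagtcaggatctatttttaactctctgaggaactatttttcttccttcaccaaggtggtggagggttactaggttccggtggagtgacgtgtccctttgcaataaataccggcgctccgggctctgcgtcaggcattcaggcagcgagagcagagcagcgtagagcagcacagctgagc
Crnde promoter: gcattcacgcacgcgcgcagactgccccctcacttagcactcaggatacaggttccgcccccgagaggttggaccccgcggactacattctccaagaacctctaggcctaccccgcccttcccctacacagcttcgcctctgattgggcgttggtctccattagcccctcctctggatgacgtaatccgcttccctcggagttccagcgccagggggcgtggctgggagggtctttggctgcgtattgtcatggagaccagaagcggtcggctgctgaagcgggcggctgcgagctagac
Gm31408 promoter: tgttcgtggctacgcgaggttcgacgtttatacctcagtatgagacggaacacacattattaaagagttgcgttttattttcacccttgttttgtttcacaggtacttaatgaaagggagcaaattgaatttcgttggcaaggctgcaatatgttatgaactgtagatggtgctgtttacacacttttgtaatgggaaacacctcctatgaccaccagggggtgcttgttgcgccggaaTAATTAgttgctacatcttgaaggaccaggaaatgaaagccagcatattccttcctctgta
Gm33721 promoter: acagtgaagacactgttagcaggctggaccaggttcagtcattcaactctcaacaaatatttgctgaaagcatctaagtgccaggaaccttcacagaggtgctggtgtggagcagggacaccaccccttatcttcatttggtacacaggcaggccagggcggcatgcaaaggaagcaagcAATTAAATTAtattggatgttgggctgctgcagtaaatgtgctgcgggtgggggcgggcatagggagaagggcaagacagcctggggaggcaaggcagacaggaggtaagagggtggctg
The Zfp335os, 2410006H16Rik, Malat1 and Crnde windows held no TAATT on either strand. The Gm31408 window held the core on both strands at the same place, and the Gm33721 window held 2 adjoining copies on the opposite strand.

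Members at microRNA genes are shown by their mature RNAs from RefSeq, with the seed, bases 2 to 8, in capitals. Mir7b has the tallest of these intervals, Mir3086 is the hairpin that holds its summit, and Mir6516 shares its interval with the snoRNA host Snhg20.
mmu-miR-7b-5p: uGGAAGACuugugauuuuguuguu
mmu-miR-7b-3p: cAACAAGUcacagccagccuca
mmu-miR-3086-5p: uAGAUUGUaggcccauugga
mmu-miR-3086-3p: cCCAAUGAgccuacagucuaag
mmu-miR-6516-5p: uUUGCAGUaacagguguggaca
mmu-miR-6516-3p: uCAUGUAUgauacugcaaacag
mmu-miR-8119: gAGGAGAGggagcuaggguc
In all, 10 microRNA genes had an end within 2 kb of a member, 9 of them were in the sequence table with 13 mature RNAs, and these carried 13 different seeds.

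By the class of the nearest noncoding gene, 205 of the 276 intervals were at lncRNA genes (74.3%, 68.8 to 79.1), 47 at small RNA genes (17.0%, 13.1 to 21.9), 20 at pseudogenes (7.25%, 4.74 to 10.9) and 4 at other biotypes. The 47 small RNA intervals divided into 19 at snRNA genes, 17 at tRNA genes, 7 at microRNA genes, 3 at snoRNA genes and 1 at a guide RNA gene. The nearest genes were 272 in number, since Malat1, Chaserr, 4930577N17Rik and Gm12592 each had 2 intervals. In 40 intervals more than 1 noncoding gene was within 2 kb of the summit, up to 5. Of these, 21 had a lncRNA gene and 13 a tRNA gene as the nearest, and the class was set by that nearest end.

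The summit height is the whole number that the deposited summit track gives for each peak, whose normalization is not given in the sources used here. The median height of the 276 intervals was 16 (interquartile range 13 to 19.25, range 9 to 64), beside 16 at coding ends and 15 away from all ends. Of all 3425 intervals, 27.5% had a height of at least 19. The members' share was 85 of 276 (30.8%, 25.6 to 36.5), near that background. It was 59 of 205 at lncRNA genes (28.8%, 23.0 to 35.3), 8 of 20 at pseudogenes (40.0%, 21.9 to 61.3), 4 of 17 at tRNA genes (23.5%, 9.56 to 47.3) and 10 of 19 at snRNA genes (52.6%, 31.7 to 72.7). The snRNA share was thus the highest of those given here. Several of the 19 snRNA members are neighbours or near copies that can share reads, so they are not independent. The Wilson interval does not cover this, and the difference from the background was not tested. The members' median width was 784.5 bp, between the 811 bp of intervals at coding ends and the 659 bp of those away from all ends. Chromosome 15, which held 258 of the 3425 intervals (7.53%), held 17 members, all at lncRNA genes.

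**Figure D1:**
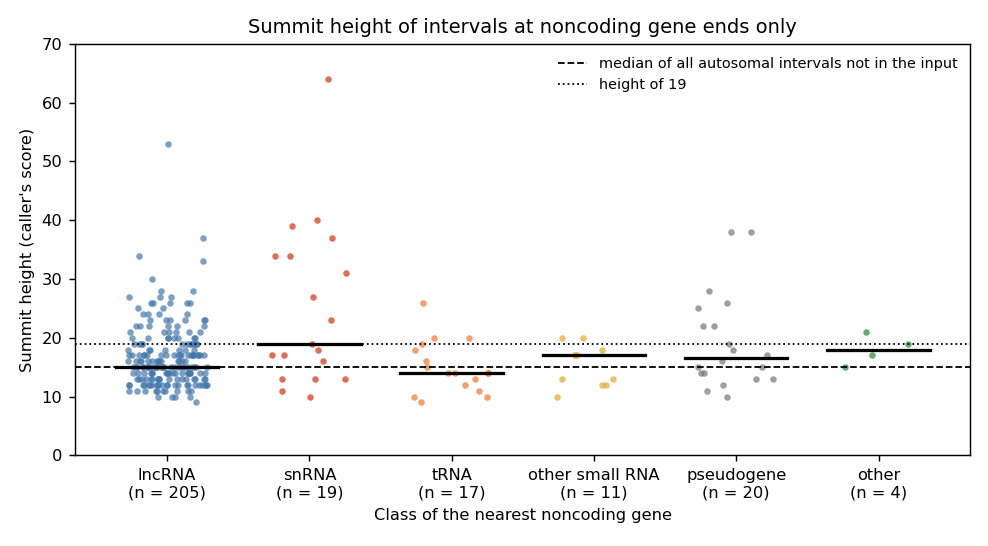
Summit height of each of the 276 intervals (points; vertical axis, the caller's score) by class of the nearest noncoding gene, with class medians as thick lines, the median of all 3425 intervals dashed and a height of 19 dotted. The snRNA points reach from 10 to 64 and lie around a median of 19, whereas most lncRNA points lie near 15.

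The tallest member was at Rnu11, the gene of U11, an snRNA of the minor spliceosome. Its interval (chr4:132269631-132270667) had a height of 64 and its summit lay inside the 108-bp gene, 42 bp from an end and 4211 bp from the nearest coding end, of Taf12. Rnu1a1 and Gm22068, a gene of the same length of 164 bp next to it, had heights of 34 and 40 with summits 106 and 28 bp from the gene, both inside the body of Tex14. Gm25099, Gm25313 and Gm23143 had heights of 39, 37 and 34, and each is annotated at 116 bp, the length of the U5 gene Rnu5g. Rnu5g itself had a height of 17 with its summit 2 bp inside the gene. At the 187-bp Rnu2-10, a gene of U2, which pairs with the intron branch point, the height was 17 and the summit was 40 bp from the gene. Of all 3425 intervals, 118 were taller than 30, among them 69 of the 2019 at coding ends and 13 of the 276 members. Of these 13 members, 7 were at snRNA genes, which made up 19 of the 276. The cut at 30 was not among the planned ones, and the 7 include neighbouring genes, so they are not independent. The summits were close to these short genes: 13 of 19 were within 100 bp of an end, with a median of 81 bp. The remaining snRNA members had heights of 10 at Rnu3b3, 11 at Gm23287, 13 at Gm25360, Gm25142 and Gm24468, 16 at Gm23851, 18 at Gm26243, 19 at Gm22973, 23 at Gm25939, 27 at Gm22265 and 31 at Gm23444. RefSeq lists Rnu3b3, a U3 gene that belongs to the nucleolar RNAs by function, under snRNA. Near-identical copies of snRNA genes can share reads, so which copy gave rise to a height is uncertain.

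The snRNA genes with a summit were grouped by their annotated length, a property chosen after the values were seen. Of the 9 snRNA genes of 116 bp on chromosomes 1 to 19, 7 had the summit of some interval within 2 kb of an end (77.8%, 45.3 to 93.7), all 7 within 250 bp, and 6 of them through a member. Of the 13 genes of 191 bp, 6 had a summit (46.2%, 23.2 to 70.9), again all within 250 bp. Of the 31 genes of 164 bp, 3 had a summit (9.68%, 3.35 to 24.9). The largest group, 354 genes of 107 bp, the length annotated for the U6 gene Rnu6, had 7 genes with a summit within 2 kb (1.98%, 0.961 to 4.02) and 1 within 250 bp, Gm26243. Rnu6 itself was 110869 bp from the nearest summit and Rn7sk, the 7SK RNA that restrains transcription elongation, was 62054 bp away. Rnu12, the gene of U12, also of the minor spliceosome, had a summit 2 bp from an end, and Rnu7, which serves histone mRNA processing, had a summit at 217 bp. Both belong to intervals with a coding end within 1 kb and so are not members. Over all 931 snRNA genes, 3.76% had a summit within 2 kb.

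Several snRNA members were neighbours. On chromosome 4, Gm25099, Gm23143 and Gm23287, all of 116 bp, had summits at 0, 12.5 and 20.7 kb from the first, with heights of 39, 34 and 11. On chromosome 9, Gm25313 and Rnu5g were 5.25 kb apart with heights of 37 and 17. On chromosome 11, Rnu1a1 and Gm22068 were 3.55 kb apart, and the lncRNA LOC115487798 and Rnu3b3 followed at 20.4 and 25.9 kb with heights of 24 and 10. The summit given to LOC115487798 was also 37 bp from an end of Rnu3b1. On chromosome 1, the summits at Gm25360 and Gm25939 lay 28.9 kb apart with the lncRNA D230017M19Rik between them, whose summit was also 117 bp from the 191-bp snRNA gene Gm24497. Across all members, 20 intervals formed 10 pairs with less than 10 kb between summits, and 4 of these pairs were at small RNA genes only.

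**Figure D2:**
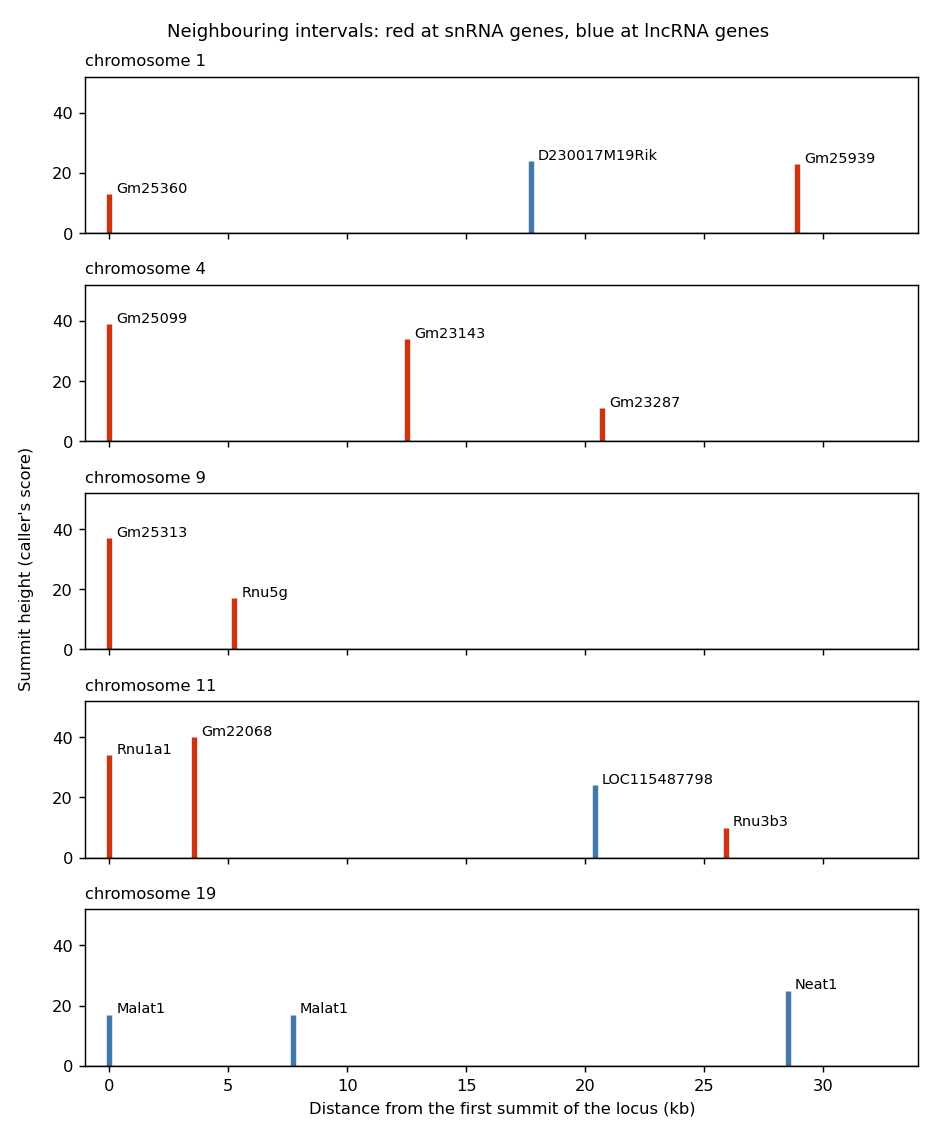
Loci with neighbouring members, each summit drawn at its distance from the first summit of the locus (horizontal axis, kb) with its height (vertical axis, the caller's score), red at snRNA genes and blue at lncRNA genes. The chromosome 4 locus falls from 39 to 11, and the summits at both ends of Malat1 have the same height of 17.

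The 17 tRNA members had lower heights, with a median of 14 and a range of 9 to 26, and the smallest distances, with a median of 32 bp to the nearest end and 14 of 17 within 100 bp. The tallest was at the tyrosine tRNA gene n-TYgta10 (chr14:51089489-51089578), with a height of 26 and a summit 17 bp from the gene. The leucine gene n-TLaag6 and the proline gene n-TPagg4 followed with 20 each, the alanine gene n-TAagc13 with 19 and the isoleucine gene n-TIaat17 with 18. The glutamate gene n-TEctc10 had 16, the asparagine gene n-TNgtt6 had 15, and n-TLcaa1, n-TTcgt5, n-THgtg3 and n-TLaag4 had 14. Lower heights were found at n-TYgta2 with 13, n-TLtaa3 with 12, n-TKctt16 with 11, n-TMcat15 and n-TMcat8 with 10 and n-THgtg5 with 9. The histidine genes n-THgtg3 and n-THgtg5 are neighbours on chromosome 2 whose summits were 0.578 kb apart. Another noncoding gene was within 2 kb in 13 of the 17. Members of all classes together, among them 9130213A22Rik and the lncRNA Gm46404, came within 2 kb of 41 of 391 tRNA genes (10.5%). By amino acid, the counts chosen after the values were seen were 9 of 25 leucine, 4 of 10 tyrosine and 4 of 11 histidine genes. None of the 56 cysteine genes was reached by a member, although 2 had a summit from another interval, and aspartate, phenylalanine, serine and tryptophan genes also had no member. All but 1 of the 17 lay outside coding gene bodies. tRNA genes of the same anticodon are near copies of each other, so reads could have been placed at another copy.

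**Figure D3:**
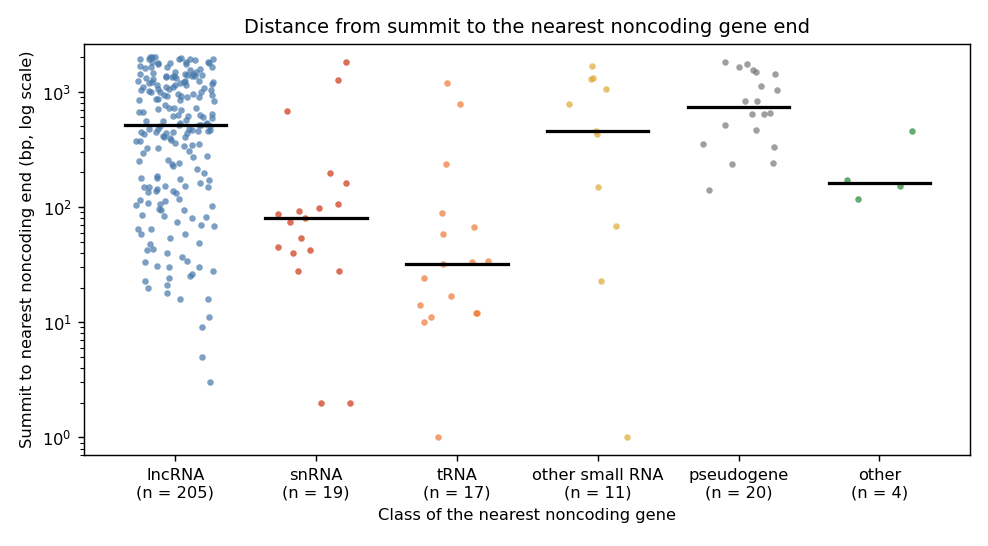
Distance from each summit to the nearest noncoding gene end (vertical axis, bp, log scale; values up to 2 kb by the rule) by class, with class medians as thick lines. The tRNA and snRNA medians are 32 and 81 bp, and the lncRNA and pseudogene medians are 514 and 742 bp.

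Summits were given to about 16 bp, since 94.6% of member summits lay on multiples of that number, so a distance of a few bp is not exact. The rule allows any distance up to 2 kb for every class. A short gene has both ends nearly at the same place, and a long one has ends far apart, so equal windows do not cover equal stretches of the genome.

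Of the remaining small RNA members, Mir1893 and Gm51295 had a height of 20, Mir8096 and Mir8119 had 17, Mir7663 and Mir3086 had 13 and Mir1904 had 12. The Mir3086 summit was inside its hairpin, while the others were 68 to 1672 bp from theirs. Mir8119 lies within Lck, the T-cell kinase gene whose name the transgene carries. Its summit was 781 bp from the microRNA, 10248 bp from the nearest outer end of Lck and 220 bp from an internal annotated start of Lck. Whether the transgene holds this stretch of the Lck promoter is not given in the sources used here, and reads from such a copy and from the Lck locus cannot be told apart. The snoRNA members were Snord58b inside the body of the ribosomal protein gene Rpl17 with a height of 18, Snord104 with 17 and a summit 1 bp inside the gene, and LOC115488834 beside Snord52 with 10. The guide RNA gene Gm22387 had a height of 12 and its summit lay 1325 bp away.

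Among the lncRNA members, the strand of the gene was known from the promoter table for 155 intervals and not for the other 50. Malat1 and Chaserr enter the 155 with 2 intervals each. The summit was nearer the start than the end for 123 of the 155 (79.4%, 72.3 to 85.0) and nearer the end for 32. Of the 205 lncRNA members, at least 38 were also within 1 kb of a coding start. The share nearer the lncRNA start was not counted without them, nor was it counted for coding genes. At lncRNA genes over 4 kb long, whose 2-kb windows cannot overlap, 84 of 104 intervals were nearer the start (80.8%, 72.2 to 87.2). Of the 123, 57 were within 250 bp of the start and 78 within 0.5 kb, with 71 summits upstream and 52 inside the gene. Median heights were 15 for those nearer the start and 17 for those nearer the end, with ranges of 10 to 53 and 9 to 27. The closest was 2410006H16Rik (chr11:62602877-62604806), the host of Snord49a, Snord49b and Snord65, with a summit 3 bp inside its start and a height of 20.

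**Figure D4:**
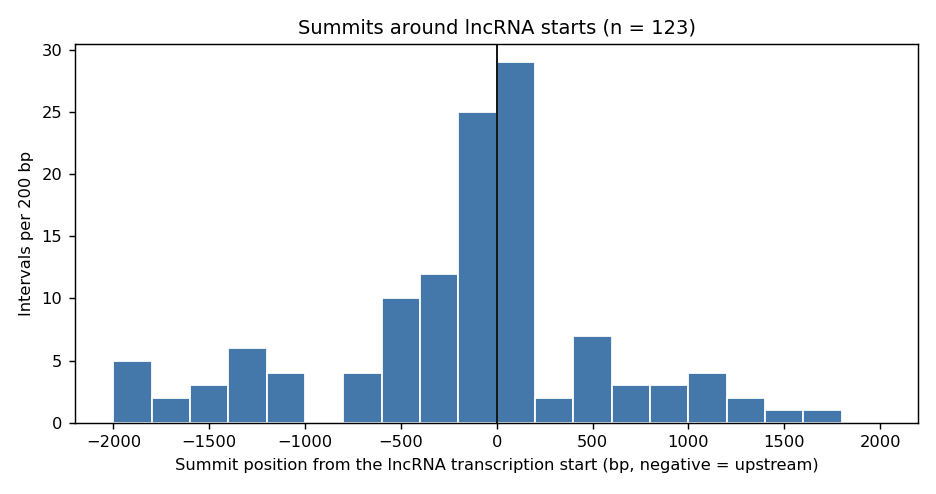
Position of 123 summits around the annotated transcription start of the lncRNA gene (horizontal axis, bp, negative upstream) in bins of 200 bp (vertical axis, intervals per bin). The bins on either side of the start are the highest.

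The tallest lncRNA members were Gm17801 with 53, 4930509E16Rik with 37 and Zfp335os with 34. The Zfp335os summit was 23 bp inside the lncRNA and 294 bp from an annotated start of the coding gene Zfp335, although both outermost ends of Zfp335 were over 1 kb away. The 4930509E16Rik summit was 1426 bp inside the gene and 1737 bp from an end of Rfx7.

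Lists of studied noncoding genes were read beside all 12408 lncRNA genes, of which 1.77% had a member and 3.91% any summit within 2 kb of an end. For lncRNA genes with a curated transcript these shares were higher, 3.04% and 7.26%. Most of the structural and nuclear RNA genes listed are small RNA genes, whose shares were 2.36% and 5.14%, and Dlx1as is annotated as an antisense RNA. The differences were not tested. Of 21 snoRNA host genes, 4 had a member and 3 more, Snhg1, Snhg6 and Zfas1, had an interval that was not a member because a coding end was within 1 kb. Snhg3 (chr4:132353172-132353863) had a height of 19 with its summit 86 bp inside the start, Snhg8 had 17 at 112 bp inside the start, Snhg20 had 11 at 81 bp inside the start, and Epb41l4aos had 11 at 31 bp from an end. Gas5, named for its rise in growth-arrested cells, was 32309 bp from the nearest summit. Of 17 microRNA host genes, 3 had a member: Mir22hg with a height of 18 and a summit 1379 bp upstream of the start, Mirc35hg with 16 at 243 bp upstream, and Dleu2, host of the miR-15a and miR-16 cluster, with 15 at 507 bp upstream. Mir17hg, host of the miR-17 to miR-92a cluster, had its nearest summit at 3398 bp and Mir155hg at 20051 bp. Of 11 structural and nuclear RNA genes, Malat1 and Neat1 had members. Malat1, a nuclear speckle RNA, had 17 at a summit 16 bp upstream of its start and 17 at a summit 714 bp beyond its end. Neat1, the scaffold of paraspeckles, had 25 at a summit 1252 bp from an end of the gene, with strand not given in the table. Rmrp and Rpph1, the RNA parts of RNase MRP and RNase P, had summits at 67 and 85 bp but in intervals with a coding end within 1 kb. No summit came within 2 kb of the 7 imprinted, 9 homeobox-linked or 7 other studied lncRNAs that were listed and found by symbol. The 7 imprinted ones do not include Gnasas1, the antisense RNA of the imprinted Gnas locus. Gnasas1 is a member, with a height of 19 and a summit 172 bp from an end. Among the homeobox-linked genes, Dlx1as, antisense to Dlx1, was 13454 bp from the nearest summit. Dlx6os1, beside Dlx5 and Dlx6, was 973013 bp away. No call says only that no interval reached the caller's threshold there.

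A few further lncRNA members were named after their values were seen. Chaserr, a regulator of its neighbour Chd2, had a height of 17 at a summit 5 bp upstream of its start and 26 at a summit 1926 bp beyond its end, which lay inside the annotated body of Chd2. A230051N06Rik, whose gene is followed by Mir7b, had 30 with its summit 444 bp inside the start and 828 bp from the Mir7b hairpin. Crnde had 12 at 40 bp upstream, Dancr 12 at 516 bp upstream, Lockd, next to Cdkn1b, 13 at 1636 bp upstream, and Gt(ROSA)26Sor, the Rosa26 locus used for transgene insertion, 14 at 1084 bp from an end.

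The 20 pseudogene members had a median height of 16.5 and lay 742 bp from the annotated ends at the median, beside 514 bp for lncRNA, 68 bp for all small RNA and 781 bp for the 7 microRNA members. The pseudogene distances ranged from 140 to 1812 bp. Gm3828 and Gm6081 had the greatest heights, 38 each, at 234 and 1547 bp, followed by the histone pseudogene H2bu1-ps with 28 at 512 bp, Gm4178 with 26 at 1727 bp and Gm8517 with 25 at 825 bp. Gm6081 was 361141 bp from the nearest coding end, of Prl5a1. The summit lay inside the pseudogene in 3 of 20 cases. Pseudogenes resemble their parent genes, so reads placed there are uncertain. The 4 members at other biotypes were Gm19281 with 21, the antisense RNA Gnasas1 of the imprinted Gnas locus with 19, Gm4633 with 17 and 9130213A22Rik with 15, and all 4 lay inside coding gene bodies.

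Counted over genes instead of intervals, 12.9% of 20665 coding genes had a summit at most 2 kb from an end. This share was 3.91% of 12408 lncRNA genes (3.58 to 4.26), 5.14% of 3853 small RNA genes (4.49 to 5.88), 0.504% of 9320 pseudogenes and 1.13% of 796 other genes. Among small RNA biotypes it was 60 of 391 tRNA genes (15.3%, 12.1 to 19.3), 66 of 1286 snoRNA genes (5.13%, 4.05 to 6.48), 33 of 1136 microRNA genes (2.9%, 2.08 to 4.05) and 0 of 61 rRNA genes. Members accounted for 41 of the 60 tRNA genes and 22 of the 35 snRNA genes with a summit, but for 16 of the 66 snoRNA genes, while the other 50 were reached only by intervals outside the members. lncRNA genes with a curated transcript had a summit in 234 of 3221 cases (7.26%, 6.42 to 8.21), beside 251 of 9187 with predicted transcripts only (2.73%, 2.42 to 3.09). Genes that share a summit are counted each, and these differences were not tested.

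**Figure D5:**
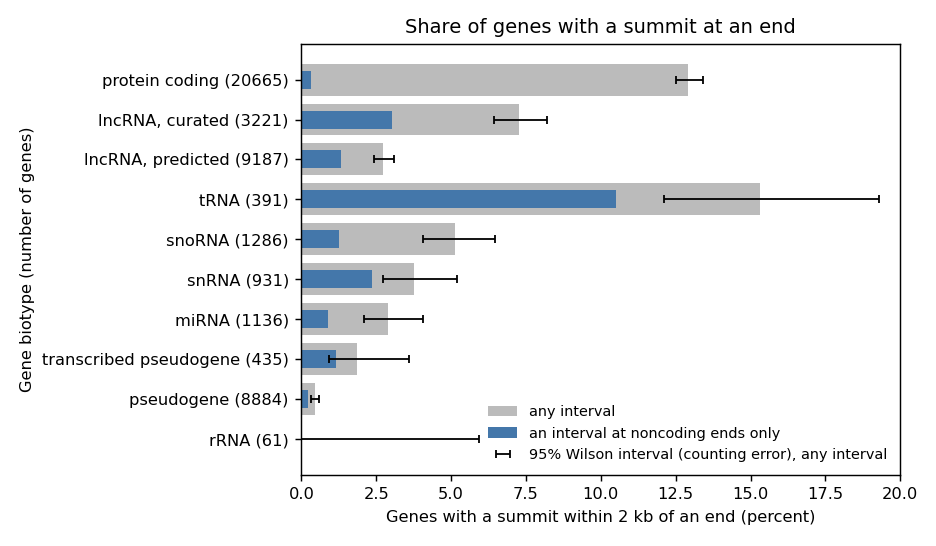
Share of genes of each biotype with a summit at most 2 kb from an end (horizontal axis, percent; grey, any interval, with 95% Wilson intervals for counting error; blue, an interval at noncoding ends only). The tRNA share is 15.3% and the coding share 12.9%, and the rRNA bar is 0 with an interval up to 5.92%.

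For the promoters introduced above, 43 windows of 40 lncRNA genes held a member summit. TAATT, searched on both strands, was in 9 of the 43 (20.9%, 11.4 to 35.2), beside 33.6% of all 11311 lncRNA windows, 23.3% of 20085 coding windows and 27.0% of all 31396 windows. In the 153 lncRNA windows with a member summit within 2 kb of the start, 34 held it (22.2%, 16.4 to 29.4). The 43 windows were richer in G and C, with a median of 60.7% against 48.3% for all lncRNA windows, a value that moves with the count of an A and T motif, and its part in the result was not tested. A ratio of observed to expected CpG over 0.6 was found in 27 of the 43 (62.8%), against 14.1% of all lncRNA and 48.9% of coding windows. Some of the 43 windows lie at coding starts. The summits at 3010003L21Rik and 2610017A05Rik, for example, were 6 and 5 bp from starts of Sinhcaf and Ipo8. Malat1, with 47.0% G and C, and Zfp335os, with 74.7%, both lacked the core. A match is a run of letters and not a binding site, and its absence from 300 bases says nothing of the rest of the interval.

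Part of the members lay in or near coding genes even though coding ends were excluded. In 119 of 276 members (43.1%) the summit lay inside a coding gene body, 94 of them at lncRNA genes, and 64 had a coding end 1 to 2 kb away. These shares were not counted for the other intervals or for the genome, so no background stands beside them. Of the 270 members on chromosomes in the promoter table, at least 44 were within 1 kb of a coding start other than an outer end, as at Zfp335os. Of these 44, 38 were at lncRNA genes. The promoter table covers 16457 of the 20665 coding genes, so 44 is a lower bound. At the other extreme, 135 members were over 10 kb and 17 over 100 kb from any coding end. At the borders of the rule, Gm39226 was kept at 1001 bp from Bbs2 with a height of 15 and n-TLaag4 at 1006 bp from Polr3e, while LOC115487892, 999 bp from Eif4a1, with 22, and Gm22063, 974 bp from Cbfb, with 14, were left out. Gm41558 and Gm33641 were kept at 1998 and 1993 bp with heights of 14 and 18, and intervals near Gm33145 and LOC108168762 at 2014 and 2017 bp, with 24 and 12, were left out.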

How the data were processed

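ChIP-seq was performed and analysed by Active Motif on an Illumina GA II, and intervals were called by MACS p-value. The processing notes name BWA and build mm9, but the deposited coordinates were read as mm10 (GRCm38.p6). On mm10 the median distance from the summits of all 3425 intervals to a coding end was 491 bp. Distances on mm9 were not measured. The caller's version, threshold and read extension are not given in the sources used here. The authors deposited a score, the summit height, as a whole number for each peak. Depth is unknown, because no read totals were used here.

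Summits were joined to their intervals, and distances were measured to both ends of each RefSeq gene, with strand only from the promoter and microRNA tables. The named genes were the 10 tallest members, all small RNA members, the 5 tallest pseudogene and other members, the member nearest a start in each class, and members at 6 gene lists; members and lists were chosen with earlier results of these data known. Shares have 95% Wilson intervals. With 1 library a group no test was made. The scripts ran under Python 3.11.15 with pandas 2.3.3 and numpy 2.4.6, figures were drawn with matplotlib 3.10.9, Wilson intervals came from scipy 1.17.1, and the rule was tested on simulated data. Alternatives were other distances, height minimums, curated genes, kept input intervals and chromosome 15 left out.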

Additional observations from a re-analysis of the deposited data

How the results depend on the processing

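The median height, the median width, and the counts with input intervals kept or chromosome 15 left out moved by less than their intervals or less than 1.5 times. The number of members was 420 with noncoding ends within 5 kb, 172 with coding ends over 5 kb away, 141 at a height of at least 16 and 85 at a height of at least 19. Pseudogene members numbered 12 with ends within 1 kb and 48 within 5 kb. With genes that have a curated transcript only, lncRNA members fell to 100, small RNA members to 16, pseudogene members to 5 and other members to 1; fewer genes enter there. The share of lncRNA members nearer the start was 86.4% for ends within 1 kb and 69.6% within 5 kb. Shares of genes with a summit, for ends within 1 kb, within 5 kb, and within 2 kb at a height of at least 19, were 11.3%, 15.5% and 3.7% for coding genes, 3.1%, 5.37% and 1.06% for lncRNA genes, 3.43%, 8.56% and 1.89% for small RNA genes, and 0.258%, 1.38% and 0.172% for pseudogenes; other genes had 0.503% at a height of at least 19. TAATTA or TAATTG in place of TAATT was in 8.5% of the 153 promoter windows, a longer motif. Leaving out members within 1 kb of another coding start in the promoter table was chosen after seeing the data. This left 232 members with the same median height of 16, and 64 of the 70 named intervals. Coding genes absent from the promoter table could not be checked in this way. Of the 70, 44 were kept with coding ends over 5 kb away and 29 at a height of at least 19. No replicate could be left out. No paired analysis was possible because there is only 1 library on each side. Heights have no error, and near copies of snRNA and tRNA genes limit which copy a value belongs to.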

Other observations

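The interval that met both distances but was also called in the input lay near the pseudogene Gm18604 on chromosome 17 (chr17:36231012-36231918). Its height was 50 in the Myc-Tag library and 28 in the input, and it was 971 bp from the pseudogene and 24377 bp from the nearest coding end. Among the members its height would have been exceeded only by those at Rnu11 and Gm17801, with 64 and 53.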
